A study of Mus musculus with 8 samples.

Results

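Mono- and diacylglycerols are the partly digested forms of dietary fat, a glycerol that still carries 1 or 2 acyl chains. They were looked for in mouse faeces by exact mass, as 7 monoacylglycerol (MG) and 7 diacylglycerol (DG) formulas, each as the neutral formula and with 1 hydrogen replaced by sodium. A mass within 3 ppm of either was taken as a member, and 6 of the 2429 masses of the deposited table were found. All 6 were neutral formulas, with no mass at a sodium form. They were MG 16:1 (C19H36O4) at 328.2615 Da, MG 18:3 (C21H36O4) at 352.2614 Da, MG 18:2 (C21H38O4) at 354.2770 Da, MG 18:1 (C21H40O4) at 356.2925 Da, DG 36:5 (C39H66O5) at 614.4910 Da and DG 36:4 (C39H68O5) at 616.5067 Da. The numbers give the acyl carbons and the double bonds, summed over both chains for a diacylglycerol. The masses lay within 0.448 ppm of their formulas, well inside the instrument's stated accuracy of 2 ppm.

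A mass gives a formula and does not identify a compound. The position of the chain on glycerol, the place of its double bonds and any isomer of another class share it, and MG 18:3 has the formula of pregnanetetrol, a steroid alcohol, as well. The 2 chains of a diacylglycerol cannot be told apart by mass: DG 36:4 may hold 18:2 with 18:2, or 16:0 with 20:4, and DG 36:5 may hold 18:2 with 18:3, or 16:0 with 20:5. The other 8 formulas had no mass: MG 14:0, 16:0 and 18:0, and DG 32:0, 34:1, 34:2, 36:2 and 36:3. All 3 saturated monoacylglycerols and the saturated DG 32:0 were thus unmatched, and each matched formula held at least 1 double bond. The nearest masses outside the tolerance were those of DG 36:5 and DG 36:4 themselves, which lay 3.87 and 3.94 ppm above the sodium forms of DG 34:2 and DG 34:1.

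Dietary fat reaches the gut as triacylglycerol. Lipases of the stomach and pancreas cut off the outer acyl chains, which leaves diacylglycerol, then 2-monoacylglycerol and free fatty acids. Bile acids hold these products in mixed micelles, from which the small intestine absorbs them and rebuilds triacylglycerol. What is not absorbed reaches the colon, where bacterial lipases and hydratases act on it. The 18:2 chain (linoleate), the 18:1 chain (oleate) and the 18:3 chain (linolenate) are the main unsaturated chains of plant seed oils, and 16:1 is palmitoleate.

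The faeces came from age-matched female C57BL/6 mice, an inbred laboratory strain. The untreated group (n = 4 samples) was collected without treatment, and the streptomycin group (n = 4 samples) 24 h after 20 mg of streptomycin, an antibiotic that blocks bacterial protein synthesis, by oral gavage. The comparison asked what that single dose did to the metabolites of the gut. Per the labels the same mice gave faeces before and after the dose, so the dose and the day of sampling cannot be told apart, and no sample analysed here is labelled as a gavage without the drug. The labels do not tie a sample to a mouse, so the p-values speak of the spread among these 8 samples, some of which may be technical. Acetonitrile extracts were infused without chromatography into an FT-ICR mass spectrometer, which weighs ions finely enough to narrow down their formulas, and each sample was acquired 2 times per ion mode. A sample's value is the mean of both acquisitions, in relative intensity. Intensities of different formulas depend on how well each ionises and are no measure of their relative amounts, so levels are compared between samples of 1 formula, or as a ratio followed across samples. The number of ions behind a value is unknown, so no counting interval is given.

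Untreated samples listed 1210 to 1270 masses and streptomycin samples 1633 to 1768, with summed intensities of 19761 to 20140 and 21600 to 23221. Over the 633 masses listed in both groups the median log2 change, streptomycin minus untreated, was -0.47 as deposited. It was -0.63 after division by total intensity, -0.08 after division by the median ratio, and -0.87 after division by the 2 calibrant masses added to every extract. A change of a single lipid is therefore given beside that median.

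Of the 5 members listed in both groups, 4 were lower after streptomycin and 1 did not pass the test (limma, Benjamini-Hochberg adjusted p under 0.05 over all masses). MG 18:2 and MG 18:3 stood at about 3.36 and 3.54 times their streptomycin level in untreated samples, MG 18:1 at 1.37 times and DG 36:5 at 2.00 times. DG 36:4 did not pass. The remaining member, MG 16:1, was listed in streptomycin samples only. Over all masses listed in both groups 38.7% were called lower and 20.7% higher. The number of members called lower depended on the scale and on the masses fitted. It was 2 after division by the median ratio, where 28.0% of the 633 masses were called lower. It was 5 on the calibrant scale, where 50.7% were called lower. Where only the 633 masses were fitted it was 3, with 36.2% called lower and MG 18:1 at limma adjusted p = 0.0727. Of all 2429 masses in the main adjustment, 1796 were listed in 1 group only. The 257 masses not called were all listed in both groups. The median log2 change of the 5 members was -1.12, against -0.47 over the 633 masses. Groups did not overlap for 3 of the 5, all lower, against 39.7% of the masses listed in both groups.

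**Figure D1:**
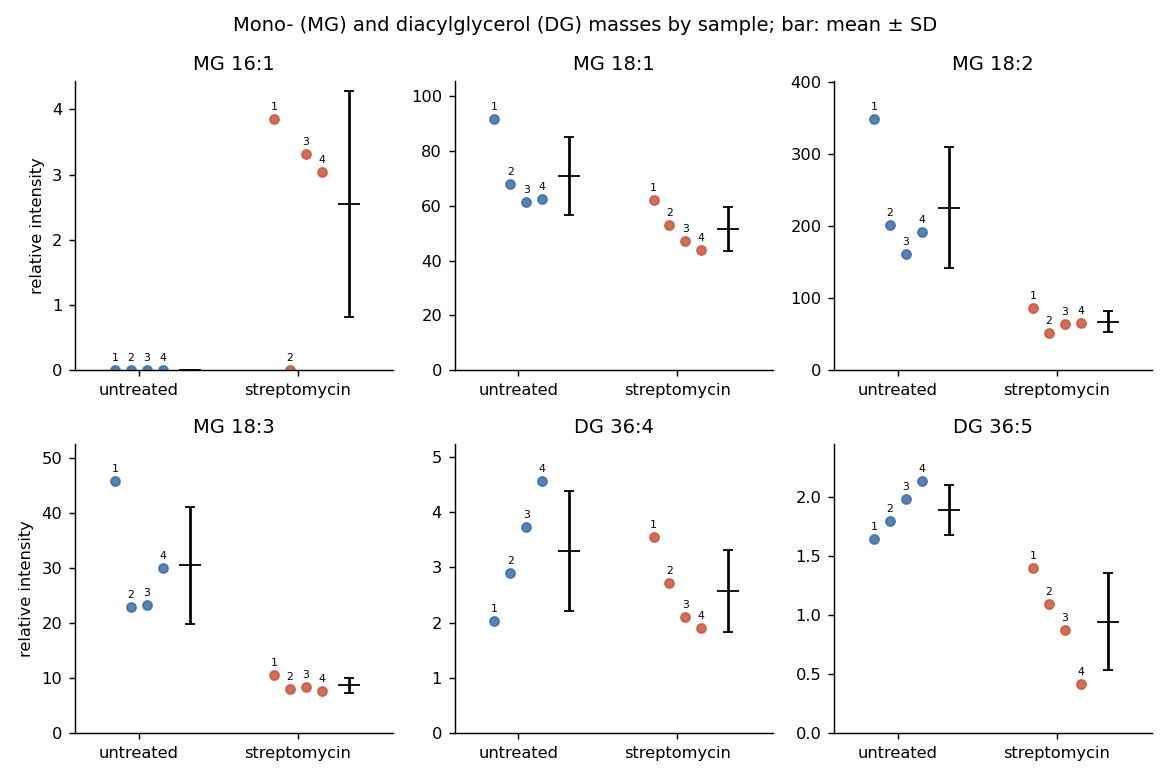
Relative intensity (y axis, linear, from 0) of the 6 mono- and diacylglycerol masses in each of the 4 untreated (blue) and 4 streptomycin (red) samples, numbered as in the labels, with the mean ± SD beside them. For MG 18:2, MG 18:3 and DG 36:5 every streptomycin sample lies under every untreated one, while MG 18:1 and DG 36:4 overlap and MG 16:1 is at 0 in all untreated samples and in streptomycin sample 2.

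MG 18:2, the monoacylglycerol of linoleate (monolinolein), was the most intense of the 6. It was at 349, 202, 161 and 192 in untreated samples 1 to 4, and at 87.1, 52.1, 64.3 and 65.6 in streptomycin samples 1 to 4. Sample 1 was the highest of its group on both sides, and the lowest untreated sample still stood above the highest streptomycin sample. The means were 226 ± 84.1 and 67.3 ± 14.5 (SD, n = 4 each), a log2 change of -1.71 ± 0.27 (SE, limma adjusted p = 0.000481). Its distance from the median of the masses listed in both groups was -1.24, and 98 of those 633 masses had a lower value. In rank by mean intensity MG 18:2 went from 15 of all masses in untreated samples to 43 in streptomycin samples, and from 1.13% to 0.302% of the summed intensity.

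MG 18:3, with 1 more double bond, was at 45.8, 23.0, 23.4 and 30.1 in untreated samples and at 10.6, 8.01, 8.43 and 7.56 in streptomycin samples. Untreated sample 1 was again the highest, and the groups were far apart. The means of 30.6 ± 10.7 and 8.64 ± 1.33 (SD, n = 4 each) gave a log2 change of -1.78 ± 0.24 (SE, limma adjusted p = 0.000193). Of the 633 masses listed in both groups, 89 had a lower change. Its rank went from 82 to 268.

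MG 18:1, the monoacylglycerol of oleate (monoolein) with 1 double bond, changed least of the 3. Untreated samples were at 91.7, 67.8, 61.2 and 62.3 and streptomycin samples at 61.9, 52.8, 47.2 and 43.9. Streptomycin sample 1 lay above untreated sample 3, so the groups overlapped, and sample 1 was the highest on both sides. The means were 70.7 ± 14.3 and 51.5 ± 7.90 (SD, n = 4 each), with a log2 change of -0.45 ± 0.17 (SE, limma adjusted p = 0.0368). That change was 0.02 from the median of all masses listed in both groups, and 50.4% of them lay below it. The call ended on the median-ratio scale (log2 change -0.06, adjusted p = 0.747), with the first acquisition alone (adjusted p = 0.132) and when only masses listed in both groups were fitted (adjusted p = 0.0727). It also ended without untreated sample 1 or 2 or streptomycin sample 2, 3 or 4, with limma adjusted p of 0.0516 to 0.0817.

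MG 16:1, the palmitoleate ester, was listed at 0 in all 4 untreated samples. Streptomycin samples 1, 3 and 4 held it at 3.86, 3.31 and 3.04, in both acquisitions of each, and sample 2 in neither. No fold is given against a group at 0. Streptomycin sample 2 lacked 150 masses that the other 3 streptomycin samples listed, against 15 to 80 for the others, and the part of this in the missing value was not tested. The free acid of the same chain, palmitoleic acid at 254.2246 Da, was at 20.1 ± 3.72 and 21.6 ± 3.15 (SD, n = 4 each) and did not pass (limma adjusted p = 0.556). No ratio could be formed for this pair, since MG 16:1 was at 0 in 5 samples.

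The 4 monoacylglycerol masses summed to 487, 293, 245 and 284 in untreated samples and 163, 113, 123 and 120 in streptomycin samples. Untreated sample 1 carried the highest sum. Its calibrants were the lowest of all samples, with a geometric mean of 105 against 125 to 128 in the other untreated samples, so division by the calibrants set it further apart (648 against 269 to 329). The mean sum was 327 ± 108 untreated and 130 ± 22.7 after streptomycin (SD, n = 4 each), 2.52 times higher in untreated samples. Without untreated sample 1 the log2 difference of the means was -1.08, in place of -1.33 with all samples. MG 18:2 and MG 18:3 kept their calls without that sample, with log2 changes of -1.48 (limma adjusted p = 0.000313) and -1.56 (limma adjusted p = 9.15e-05).

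Diacylglycerols were weak signals, at intensities under 5. DG 36:5 was at 1.65, 1.80, 1.98 and 2.13 in untreated samples and at 1.40, 1.09, 0.873 and 0.417 in streptomycin samples. All streptomycin samples were below all untreated ones. The means were 1.89 ± 0.213 and 0.945 ± 0.412 (SD, n = 4 each), with a log2 change of -1.12 ± 0.36 (SE, limma adjusted p = 0.0174). That change was -0.66 from the median of the masses listed in both groups, and 30.2% of them lay below it. The low value of streptomycin sample 4 is the mean of 0.835 in 1 acquisition and 0 in the other. With only listed acquisitions averaged the log2 change was -0.87 and the call stayed (limma adjusted p = 0.00223). The call ended after division by the median ratio (log2 change -0.74, limma adjusted p = 0.102).

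DG 36:4 was at 2.03, 2.89, 3.73 and 4.56 in untreated samples and at 3.55, 2.71, 2.10 and 1.89 in streptomycin samples. The groups overlapped over most of their range. Untreated sample 1, the highest for every C18 monoacylglycerol, was the lowest untreated sample for both diacylglycerols, and streptomycin sample 1 was the highest of its group for both classes. The means of 3.30 ± 1.09 and 2.56 ± 0.743 (SD, n = 4 each) gave a log2 change of -0.35 ± 0.30 (SE, limma adjusted p = 0.298), with a 95% interval from -1.05 to 0.36. It lay 0.12 from the median of the masses listed in both groups, with 53.6% of them below. The change was -0.56 without untreated sample 1, -0.17 without untreated sample 4 and -0.22 without streptomycin sample 4, with limma adjusted p of 0.0869, 0.597 and 0.534. On the median-ratio scale the sign turned (log2 change 0.04), and on the calibrant scale it was lower past the threshold (-0.77, limma adjusted p = 0.0235). Together the 2 diacylglycerols gave 5.19 ± 1.30 untreated and 3.51 ± 1.14 after streptomycin (SD, n = 4 each).

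**Figure D2:**
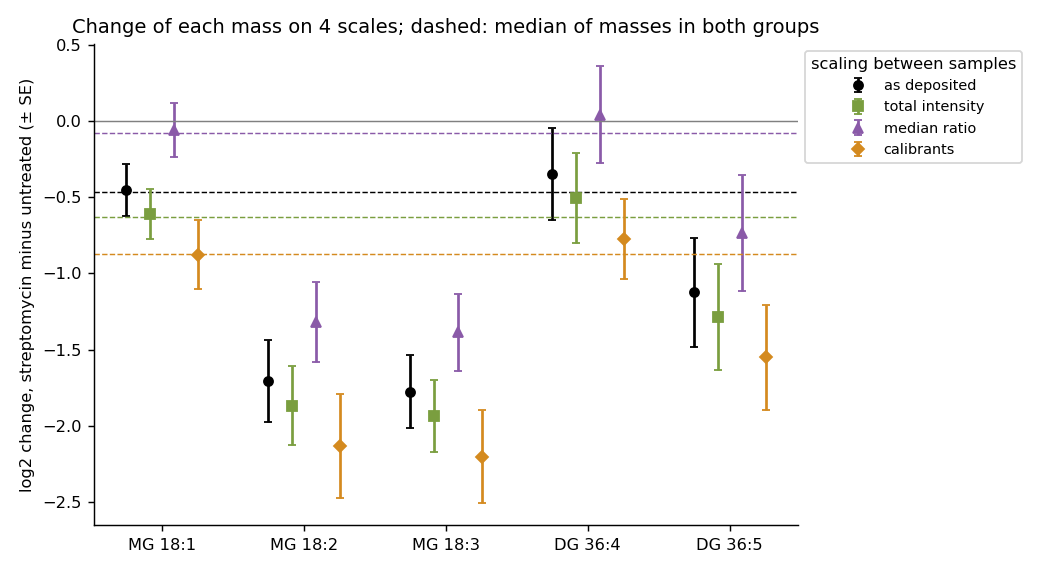
Log2 change, streptomycin minus untreated (y axis), of the 5 masses listed in both groups, as points with SE from limma, on 4 scales between samples. Dashed lines give the median change of the 633 masses listed in both groups on each scale. MG 18:2 and MG 18:3 lie between -2.20 and -1.32 and under the median line of their scale throughout, while MG 18:1 and DG 36:4 sit near it.

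A change in the ratio of 2 lipids within a sample does not depend on a scale factor between samples that both masses share. The ion mode of a mass is not stated, so whether the 2 masses of a pair share 1 scale is unknown. Of 21 pairs differing by a stated feature, namely a double bond, chain length, the number of chains, or ester against free acid, 5 could be formed from masses of 1 ion form listed in all 8 samples. Each was compared between groups by an exact two-sided permutation test of the log2 ratio. The smallest p that 4 against 4 samples allow is 0.0286, and p-values were adjusted over the 5 pairs. The tests were repeated without each sample in turn, and a call that ended is given beside its ratio. The interval given is the range of all 16 differences between a streptomycin and an untreated sample, an exact 97.1% interval for a shift.

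The step from 1 to 2 double bonds in the C18 monoacylglycerols separated the groups. MG 18:2 over MG 18:1 was 3.81, 2.98, 2.63 and 3.08 in untreated samples and 1.41, 0.986, 1.36 and 1.50 in streptomycin samples. Every untreated ratio was above every streptomycin ratio. The log2 ratio changed by -1.26 (interval -1.95 to -0.81, exact permutation p = 0.0286, adjusted p = 0.0357), a ratio 2.39 times higher in untreated samples. MG 18:2 thus fell further than MG 18:1. Without streptomycin sample 4 the change was -1.32 with groups still apart, and the call ended on the adjustment (exact permutation p = 0.0286, adjusted p = 0.0714).

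The step from 2 to 3 double bonds did not separate them. MG 18:3 over MG 18:2 was 0.131, 0.114, 0.145 and 0.157 in untreated samples and 0.121, 0.154, 0.131 and 0.115 in streptomycin samples, so both groups covered nearly the same range. The log2 ratio differed by -0.07 (exact permutation p = 0.6, adjusted p = 0.6), and the interval of -0.44 to 0.43 leaves room for a change of that size either way. MG 18:3 over MG 18:1, a pair added after the values were seen, changed by -1.33 (interval -1.72 to -0.93, exact permutation p = 0.0286, adjusted p = 0.04 over 7 pairs). Without any 1 streptomycin sample its adjusted p was 0.05 to 0.0667 by the exact permutation test, not past the threshold, with groups still apart.

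As a share of the summed intensity of the 3 C18 monoacylglycerols, MG 18:1 made up 18.8%, 23.2%, 24.9% and 21.9% in untreated samples and 38.8%, 46.8%, 39.4% and 37.5% in streptomycin samples. MG 18:2 went from 68.4% ± 2.62 to 52.6% ± 4.43 and MG 18:3 from 9.35% ± 1.12 to 6.80% ± 0.307 (SD, n = 4 each). These are shares of signal and restate the ratios above. Untreated sample 1, whose summed monoacylglycerol intensity was the highest, also had the highest share of MG 18:2 and the lowest of MG 18:1. Its MG 18:2 share was 71.8%, against 65.5% to 69.0% in the other untreated samples.

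**Figure D3:**
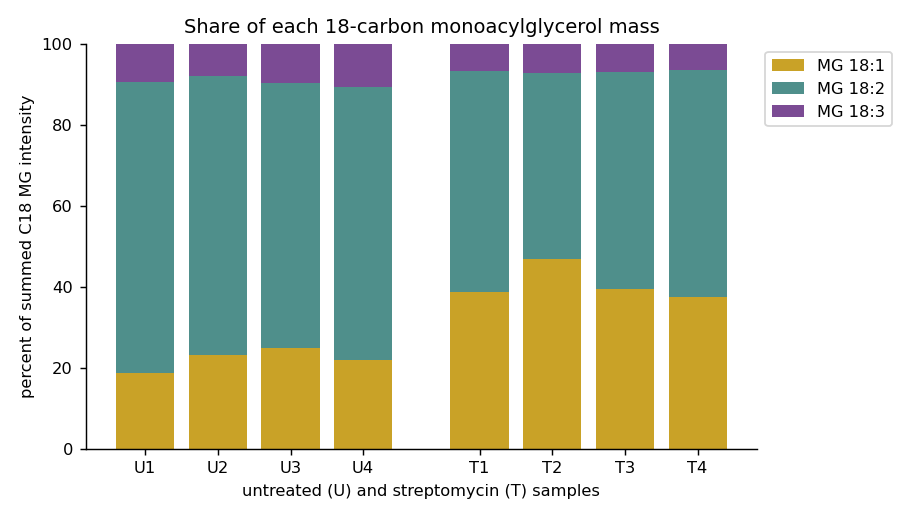
Percent of the summed intensity of the 3 monoacylglycerol masses with an 18-carbon chain (y axis, 0 to 100) in each untreated (U1 to U4) and streptomycin (T1 to T4) sample. MG 18:1 takes 18.8% to 24.9% in untreated and 37.5% to 46.8% in streptomycin samples.

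Among diacylglycerols DG 36:5 over DG 36:4, which differ by 1 double bond, was 0.810, 0.622, 0.532 and 0.468 in untreated samples. It was 0.393, 0.403, 0.416 and 0.220 in streptomycin samples, all below the untreated ones. The log2 ratio changed by -0.78 (interval -1.88 to -0.17, exact permutation p = 0.0286, adjusted p = 0.0357). With only listed acquisitions averaged, streptomycin sample 4 was at 0.441, the change was -0.53 and the groups still did not overlap. Without that sample it was -0.56 and the call ended (exact permutation p = 0.0571, adjusted p = 0.0952).

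A diacylglycerol was also set against a monoacylglycerol, a pair that differs in the number of chains. The log2 changes of single members did not sort by the number of chains. DG 36:5 at -1.12 lay between MG 18:2 at -1.71 and MG 18:1 at -0.45, and DG 36:4 was at -0.35. DG 36:4 over MG 18:2, a glycerol with 36 acyl carbons and 4 double bonds against one with a single 18:2 chain, was 0.00582, 0.0143, 0.0232 and 0.0238 in untreated samples. In streptomycin samples it was 0.0408, 0.0521, 0.0326 and 0.0289. The lowest streptomycin ratio was above the highest untreated one by a small margin, and untreated sample 1 stood well below the rest. The log2 ratio rose by 1.36 (interval 0.28 to 3.16, exact permutation p = 0.0286, adjusted p = 0.0357), and by 0.92 without untreated sample 1. The call ended without any 1 streptomycin sample (exact permutation p = 0.0857, adjusted p = 0.107), though the groups did not overlap. For DG 36:5 over MG 18:3, added after the values were seen, the groups overlapped and the log2 ratio differed by 0.65 (interval -0.62 to 1.92, exact permutation p = 0.171, adjusted p = 0.2 over 7 pairs). Without untreated sample 1 that difference was 0.37, with groups that overlapped. Averaging only listed acquisitions parted these groups as well, with a log2 difference of 0.90 (exact permutation adjusted p = 0.0333 over 7 pairs).

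**Figure D4:**
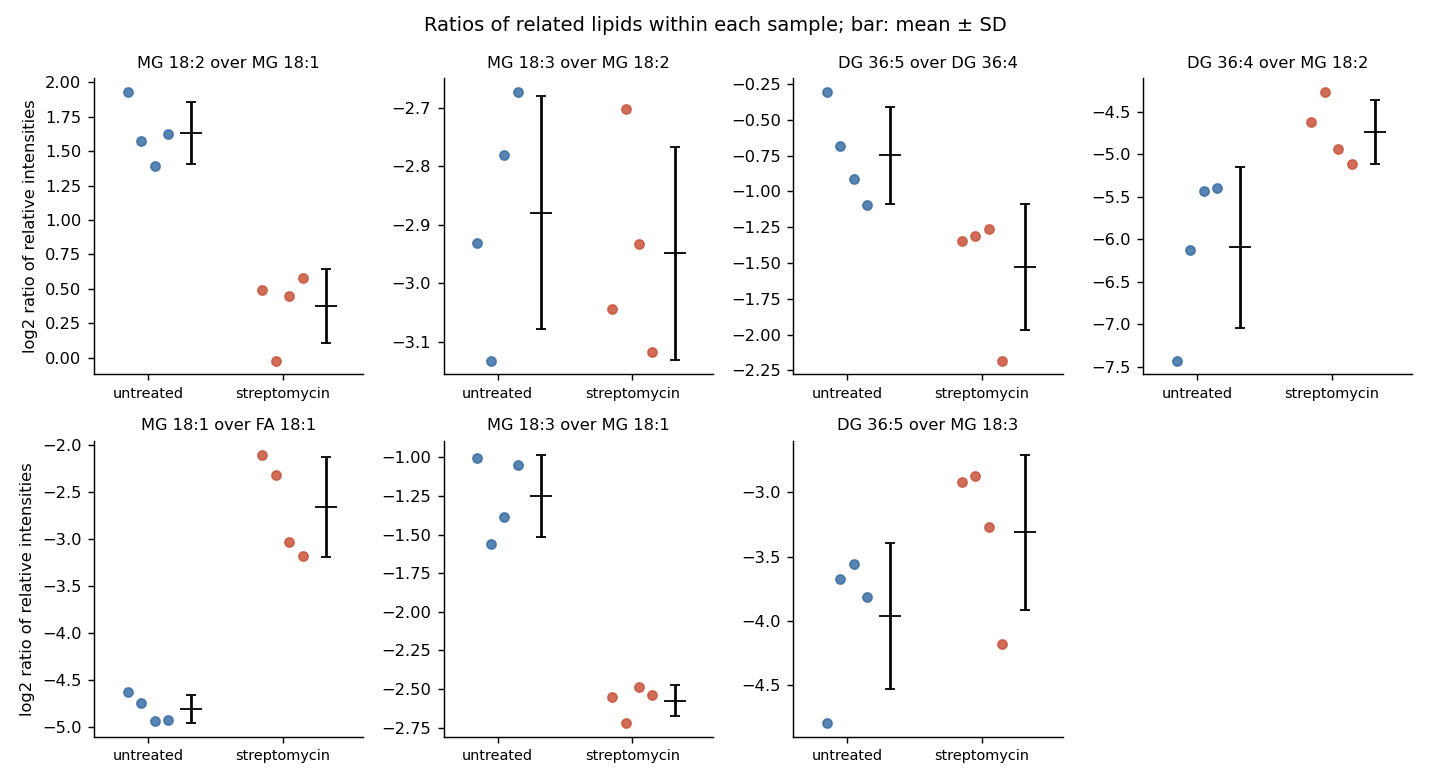
Log2 ratio of relative intensities of 2 lipids (y axis, one panel per pair, scales differ) in each untreated (blue) and streptomycin (red) sample, with mean ± SD. The groups do not overlap except for MG 18:3 over MG 18:2 and DG 36:5 over MG 18:3.

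Free fatty acids are the other product of lipolysis, and oleic acid, at 282.2555 Da, allowed the ester to be set against the acid. Oleic acid was at 2264, 1817, 1874 and 1899 in untreated samples and 265, 262, 386 and 398 in streptomycin samples, a far wider gap than that of MG 18:1. MG 18:1 over oleic acid was 0.0405, 0.0373, 0.0326 and 0.0328 in untreated samples and 0.234, 0.202, 0.123 and 0.110 in streptomycin samples. The log2 ratio rose by 2.15 (interval 1.45 to 2.84, exact permutation p = 0.0286, adjusted p = 0.0357), 4.45 times higher after streptomycin. Without streptomycin sample 4 it rose by 2.33 with groups apart, and the call ended on the adjustment (exact permutation p = 0.0286, adjusted p = 0.0714). For linoleate no ratio could be formed. Linoleic acid was matched at 280.2395 Da with a mass error of -2.61 ppm, outside the instrument's stated accuracy of 2 ppm. It averaged 2044 ± 280 over the untreated samples (SD, n = 4). It was at 0 in all 4 streptomycin samples, where its ester MG 18:2 was still at 52.1 to 87.1. No other mass of the table lay within 20 ppm of linoleic acid. Linolenic acid stood on 1 mass per group, 278.2244 Da at 39.5 ± 4.84 in untreated samples only and 278.2250 Da at 15.1 ± 1.96 in streptomycin samples only (SD, n = 4), beside MG 18:3 at 30.6 and 8.64.

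Of 17 free fatty acid formulas, 12 masses were matched, of which 5 were called higher, 5 lower and 2 did not pass. The formulas of linolenic acid and of the 20:1 acid each matched 2 masses, 1 called lower and 1 higher. Over all 2429 masses 52.7% were called higher and 36.7% lower, most of them listed in 1 group only, as were 6 of these 12. Of the 6 listed in both groups, 1 was higher, 3 were lower and 2 did not pass, with a median log2 change of -0.57. Over the 633 masses listed in both groups 20.7% were higher and 38.7% lower, with a median of -0.47. Palmitic acid, the saturated 16:0 acid at 256.2402 Da, rose from 111 ± 6.81 to 195 ± 25.8 (SD, n = 4 each). Its monoacylglycerol had no mass in either group.

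None of 19 triacylglycerol formulas, the undigested form of fat, had a mass. Of 15 other diacylglycerol formulas 1 did, DG 36:6 at 612.4755 Da, at 1.07 ± 0.0868 (SD, n = 4) before and at 0 after streptomycin. With it, each of the 3 masses matched to the diacylglycerol formulas searched had 36 acyl carbons and at least 4 double bonds. Of 15 other monoacylglycerol formulas 7 masses were matched, of which 4 were called lower, 2 higher and 1 did not pass, beside the same 36.7% lower and 52.7% higher over all masses. Of these 7, 5 were listed in 1 group only. Of the 2 listed in both groups 1 was lower and 1 did not pass, beside 38.7% lower over the 633 masses listed in both groups.

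These 7 masses had only 4 formulas, all highly unsaturated. MG 20:4, the ester of arachidonate, at 378.2772 Da, was at 4.12 ± 0.415 (SD, n = 4) before and at 0 after streptomycin. That formula is also the one of nordeoxycholic acid, and those of MG 22:5 and MG 22:6 are shared with methyl esters of oxidised bile acids. MG 22:5 at 404.2928 Da went from 7.03 ± 0.511 to 2.31 ± 0.213 (SD, n = 4 each), and the other mass of that formula, 404.2927 Da, was listed in untreated samples only. MG 22:6 was listed at 402.2769 Da in untreated samples only, at 11.3 ± 1.62, and at 402.2772 Da in streptomycin samples only, at 0.311 ± 0.104 (SD, n = 4). MG 20:5 at 376.2616 Da was at 2.68 ± 0.270 in untreated samples and at 0.905, 0, 1.06 and 1.58 in streptomycin samples (limma adjusted p = 0.0504). Its sodium form, 398.2434 Da, went the other way, listed in streptomycin samples only at 3.08 ± 0.725 (SD, n = 4). The free acids of the 20:4 and 22:5 chains, 304.2403 and 330.2560 Da, were also listed in streptomycin samples only, at 6.48 ± 0.857 and 3.14 ± 1.95 (SD, n = 4). That of the 20:5 chain, 302.2246 Da, was at 8.88 ± 1.67 untreated and 7.07 ± 0.727 after streptomycin (SD, n = 4 each) and did not pass (limma adjusted p = 0.0949).

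**Figure D5:**
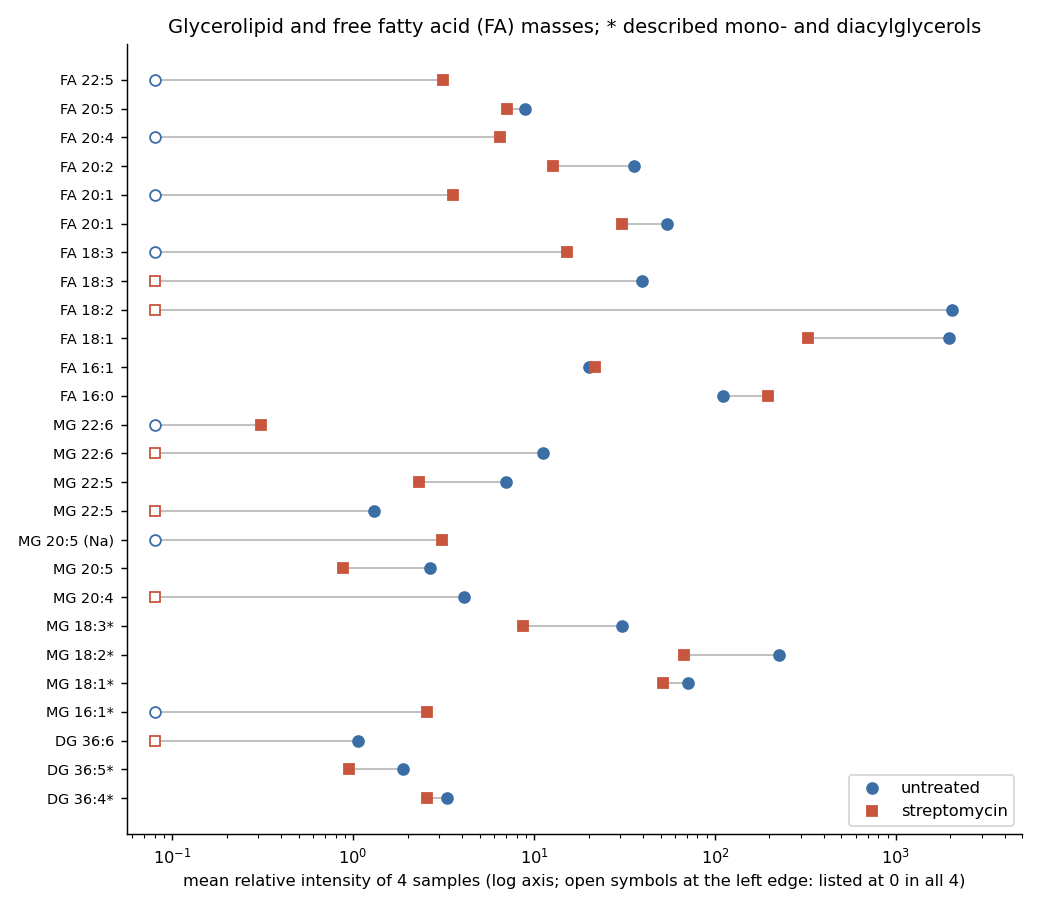
Mean relative intensity of 4 samples (x axis, log) of every matched diacylglycerol, monoacylglycerol and free fatty acid (FA) mass, in untreated (circles) and streptomycin (squares) samples, with open symbols at the left edge for a group listed at 0. The 6 starred masses are those described here, of which MG 16:1 alone is at 0 in a group.

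Masses at other ion forms of the 14 formulas were looked for as well, and 8 were found. A match in mass does not show that such a mass is an ion of the named lipid. None was a potassium, hydrogen chloride or carbon-13 form. All 8 were listed in 1 group only, so none could be followed across the groups. For DG 36:4 both went with the untreated samples. The mass with 1 ammonia added, 633.5333 Da, was at 0.964, 1.62, 1.76 and 0.970 there, and the mass less water, 598.4961 Da, at 0.589, 0.820, 1.03 and 1.19, and both were listed at 0 in all streptomycin samples, where DG 36:4 itself was at 1.89 to 3.55. DG 36:3, which had no mass of its own, had one less water at 600.5117 Da, at 0.625, 0.733 and 0.823 in untreated samples 2 to 4 and at 0 in the other 5 samples.

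Masses at ion forms of the monoacylglycerol formulas went both ways. MG 18:1 with formic acid added, 402.2976 Da, was at 3.02, 1.32, 1.50 and 1.78 in untreated samples, again highest in sample 1, and at 0 in streptomycin samples. MG 18:2 with ammonia added, 371.3036 Da, was at 9.77, 8.96, 8.57 and 9.82 in streptomycin samples and at 0 in untreated samples, against the direction of MG 18:2 itself. That is also the formula of myristoylcarnitine, an acyl carrier ester of fatty acid oxidation. The mass of MG 16:1 less water, 310.2509 Da, was at 2.48, 4.42, 3.83 and 1.77 and that with formic acid, 374.2669 Da, at 1.69, 2.60, 1.13 and 0.814 in streptomycin samples only. Both were highest in streptomycin sample 2, the one in which MG 16:1 was at 0. A mass of MG 14:0 with formic acid, 348.2514 Da, was at 1.99 to 2.29 in streptomycin samples and at 0 in untreated samples.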

How the data were processed

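Per the file headers the authors deposited linear relative intensities, 1 row per neutral mass in Da and 1 column per acquisition. Their reference level, the peak picking and the joining of ion modes are not stated there or in the labels. The 0 of an acquisition that did not list a mass entered the mean of both acquisitions. Values were log2 transformed with 0 set to the lowest sample value, 0.0738, and fitted for all 2429 masses (all listed by 3 or more samples of 1 group) with limma's lmFit and eBayes, without a block. Formula masses came from pyteomics. Groups follow the sample titles. The members, the lists and the tests were chosen with earlier results of these data known. Every member is named, as are the fatty acids that share a chain with a matched monoacylglycerol; other list masses were picked with their values in view. The alternatives covered the value for 0, the masses fitted, the scaling, a variance trend, a replicate block, the methods' t-test, the acquisitions, the mass tolerance and each sample left out. These additions were chosen after seeing the data: the lowest single acquisition as the value for 0, ratios from listed acquisitions only, and 2 further pairs. The fit was tested on simulated data. Software was R 4.3.3, limma 3.58.1, Python 3.11.15, numpy 2.4.6, pandas 2.3.3, pyteomics 5.0.1 and matplotlib 3.10.9.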

Additional observations from a re-analysis of the deposited data

Results flagged for a closer look

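The ratio of DG 36:5 to DG 36:4 was 0.220 in streptomycin sample 4, apart from 0.393 to 0.416 in the other 3 streptomycin samples. The gap to the nearest sample was 0.884 of the group's range, above the critical value of Dixon's test for 4 samples at the 95% level. One acquisition of that sample listed DG 36:5 at 0 and the other at 0.835, and with only the listed acquisition the ratio was 0.441. It was the only one of 29 groups of values examined, and chance marks about 1 in 20.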

How the results depend on the processing

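MG 18:2 and MG 18:3 were called lower under every alternative run. The count of members called lower was 4 (3 to 4 without 1 sample). It was 2 after division by the median ratio and 5 on the calibrant scale. It was 3 where only masses listed in both groups or in all 16 acquisitions were fitted. From the second of these fits DG 36:5, listed in 15 acquisitions, was left out, and MG 18:1 stayed called (limma adjusted p = 0.0454). The count was also 3 with the first acquisition alone and by the methods' t-test. The shares of masses listed in both groups that were called lower were 36.2%, 45.9%, 39.0% and 41.7% in these 4 settings. The 45.9% is of the 436 masses listed in all 16 acquisitions. The count called higher, MG 16:1 alone, was 1, and 0 where only masses listed in both groups or in all 16 acquisitions were fitted, since it was then left out. It was 0 to 1 without 1 sample, since MG 16:1 was not tested without streptomycin sample 1, 3 or 4. The call of MG 16:1 sets listed values against the value put in for 0, so it restates the listing. Over all 2429 masses 52.7% were called higher, most of them listed in 1 group only. The log2 difference of the monoacylglycerol sums was -1.33, against -0.94 after division by the median ratio and -1.78 on the calibrant scale, and -1.46 to -1.08 without 1 sample. MG 18:1 was also not called by the methods' t-test (adjusted p = 0.0627). Over its 22 alternatives the adjusted p of MG 18:1 ran from 0.00755 to 0.747, with 13 below 0.05. That of DG 36:5 ran from 0.00223 to 0.102 over 21, with 20 below, and that of DG 36:4 from 0.0235 to 0.904 over 22, with 1 below. The 5 pair ratios kept their sides with single acquisitions, but DG 36:5 over DG 36:4 could not be formed from the first acquisition. Without 1 sample, MG 18:2 over MG 18:1 changed by -1.33 to -1.12, DG 36:5 over DG 36:4 by -0.89 to -0.56 and MG 18:1 over oleic acid by 1.97 to 2.33, each past the threshold in 7 of 8 cases. DG 36:4 over MG 18:2 changed by 0.92 to 1.59 and passed in 4 of 8. No second row of a formula was listed in all samples, so that alternative was not run. The replicate numbers were not taken to pair the samples. Same-numbered samples correlated at 0.04, 0.03, 0.11 and 0.12 over 539 masses. Untreated samples 3 and 4 correlated best with the streptomycin sample of their own number, and untreated samples 1 and 2 with streptomycin samples 2 and 4. With the replicate block, 4 members stayed lower and 1 higher, and MG 18:1 had a limma adjusted p = 0.0186. The block lowered the SE of MG 18:3, MG 18:2 and MG 18:1 to 0.17, 0.17 and 0.11. It raised the SE of DG 36:5 and DG 36:4 to 0.39 each. With the numbers taken as pairs the ratio changes of -1.26, -0.78, 1.36 and 2.15 had an exact sign-flip permutation p = 0.125, the smallest that 4 pairs allow, so this pairing cannot pass 0.05. At other tolerances of 1, 2 and 5 ppm the count of masses stayed at 6. At 5 ppm, though, the masses of DG 36:5 and DG 36:4 also matched the sodium forms of DG 34:2 and DG 34:1. The weak diacylglycerol signals limit what can be said: acquisitions of DG 36:5 differed by a median of 16.5%, against 7.99% for MG 18:2.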
